A study of Mus musculus with 3 samples.

Results

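The genes described here build and supply the primary cilium, the single antenna-like projection of most embryonic cells. They are 39 named genes out of the 55401 genes counted in the bulk RNA-Seq libraries, chosen by gene name for intraflagellar transport (IFT), the BBSome, ciliary motors, the transition zone and ciliopathy genes with facial phenotypes. The choice uses names only, and it was made with earlier results of these data known. The 3 libraries came from maxillary processes, the paired embryonic swellings that form the upper jaw, dissected at E10.5 from *Wnt1cre; Rosa26Dlx2/-* mice. In these Dlx2-overexpressing (OE) mice, Cre under *wnt1* control removes a stop cassette from a CAG-LSL-Dlx2-3xFlag allele at *Rosa26*. The design thus switches the transgene on in neural-crest-derived cells. Whether other cells of the dissected tissue keep it silent was not examined here. All 3 libraries carry both alleles and were labelled as independent RNA samples, without a statement of whether each held 1 embryo or a pool. The libraries are named OE replicates 1, 2 and 3, which is only an order of listing. No wild-type library was analysed here and no difference between genotypes was tested. Every value is therefore a level in OE tissue or a difference between OE libraries.

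A cilium is assembled by IFT, in which trains of protein complexes are carried along the axoneme. The IFT-B complex travels outwards with kinesin-2 and brings tubulin and other parts to the tip, and the IFT-A complex returns with cytoplasmic dynein-2. The BBSome rides on these trains and moves membrane proteins out of the cilium, while the transition zone at the base acts as a gate. Vertebrate cells receive Hedgehog signals at the cilium, and mutations in many of these genes cause ciliopathies that include midfacial clefts and abnormal spacing of the face. RFX transcription factors bind the X-box, a motif known from promoters of ciliary genes.

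X-box matches in the promoters are shown first, because they are a sequence feature that the choice of genes did not use. Promoters of 300 bases, from 250 before to 50 after each gene start, were taken from RefSeq (GRCm38.p6), and 35 of the 39 genes had 36 of them (*Gpr161* had 2). *Ift122*, *Ift80*, *Ift81* and *Tmem67* had none in the table. The motif searched was GTNNCCNNNGNAAC on both strands, with N for any base. It was found in 7 of the 36 promoters (19.4%), and in 2.17% of all 32851 promoters and 2.24% of the 21263 promoters of protein-coding genes. The shorter form CCNNNGNAAC, which lies inside the longer one, was found in 11 of 36 (30.6%) against 15.0% of all promoters. The first match of *Ift22* and those of *Ift57* and, further below, *Bbs1* fit the motif on the strand opposite the gene. Below, each sequence is read 5′ to 3′ on the strand of its gene, with the X-box match in capitals. It ends no later than the base before the gene start.
*Ift22* (chr5:136908057-136908149, plus strand): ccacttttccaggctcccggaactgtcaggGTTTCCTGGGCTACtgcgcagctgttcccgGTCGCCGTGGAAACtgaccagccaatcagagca
*Ift57* (chr16:49699177-49699250, plus strand): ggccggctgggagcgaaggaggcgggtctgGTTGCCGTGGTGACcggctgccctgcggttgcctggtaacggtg
*Bbs7* (chr3:36613467-36613540, minus strand): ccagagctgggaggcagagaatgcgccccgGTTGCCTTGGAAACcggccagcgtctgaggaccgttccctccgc
*Mks1* (chr11:87853161-87853214, plus strand): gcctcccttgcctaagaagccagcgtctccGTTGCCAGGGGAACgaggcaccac
*Intu* (chr3:40540687-40540760, plus strand): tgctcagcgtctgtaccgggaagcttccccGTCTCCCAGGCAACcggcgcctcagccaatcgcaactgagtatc

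*Ift22*, a small GTPase of IFT-B, was the only one of these genes with a pair of matches, which began 63 and 33 bases before the gene start. The single matches began 87 bases before the start in *Ift57*, 121 in *Bbs7*, 24 in *Mks1* and 50 in *Intu*. In *Bbs1* (GTTGCCAAGGCGAC, chr19:4906613-4906626, minus strand) and *Bbs4* (GTCGCCCGGGAAAC, chr9:59353472-59353485, minus strand) the match lay after the gene start. The 7 genes with a match therefore came from IFT-B, the BBSome, the transition zone and the planar polarity effectors. Their median level was 7.83 TPM (6.49 to 23.7), and that of the 28 genes without a match was 18.5 TPM (3.07 to 82.8), where TPM is transcripts per 1000000 from counts divided by exonic length. A CpG ratio, observed over expected CG pairs, above 0.6 was found in 30 of 36 promoters (83.3%), against 35.8% of all promoters and 47.6% of those of protein-coding genes. Median GC content was 58.8%, against 52.7% of all promoters and 56.3% of those of protein-coding genes. The letters TATAAA, read on the gene's strand in the 50 bases before the start, were in 0 of 36 promoters and in 2.63% of all.

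The libraries held 36544554, 35351031 and 40057435 counts on genes in replicates 1, 2 and 3. *Dlx2*, the overexpressed gene, had 9089, 7150 and 6890 counts. Counts on *Dlx2* do not separate the transgene from the endogenous gene. Facial mesenchyme markers were all expressed, with 9 of 9 genes between 15.7 and 705 TPM and sums of 1638, 1695 and 1800 counts per 1000000 after TMM scaling (CPM). Single mesenchyme markers differed more than the sums, with 1 of 9 past 2-fold from the mean of the other libraries in each library. The libraries also stood apart in markers of other tissues. The summed level of 9 neuron markers was 272 CPM in replicate 1 and 24.1 and 36.2 in replicates 2 and 3, and that of 6 pigment cell markers was 4.96, 33.4 and 157 CPM. Sums were 25.0, 157 and 148 CPM for 7 eye and forebrain markers, 390, 248 and 242 for 7 epithelial, 291, 323 and 243 for 6 endothelial, 22.0, 29.1 and 33.6 for 6 macrophage and 2126, 3963 and 4965 for 6 erythroid markers. None of these markers was at 0 in all libraries. *Xist* had 25915 counts in replicate 1 and 11 and 21 in the others. In bulk tissue, fewer cells of a type and less RNA per cell cannot be told apart.

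All 39 cilium genes were expressed in every library, with counts from 170 to 3725, and all passed the filter of a mean count of at least 10 that 17115 genes passed. They lie on 17 chromosomes. Their summed level was 1145 CPM in replicate 1, 1148 in replicate 2 and 1171 in replicate 3, or 1155 ± 14.3 (SD, n = 3). The sum thus varied little although single genes differed in opposite directions, as given below. Levels of different genes were compared per length, in TPM. Mean TPM ran from 3.07 to 82.8, a 27.0-fold range with a median of 13.1, and 25 of 39 genes lay above the median of all genes tested, 10.9. The median TPM of all genes tested was itself 13.1, 10.9 and 8.07 in replicates 1, 2 and 3, so libraries were compared in CPM and not in TPM. The SD given with a mean TPM also carries this shift between libraries, and the spread of a gene is read from its CPM.

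**Figure D1:**
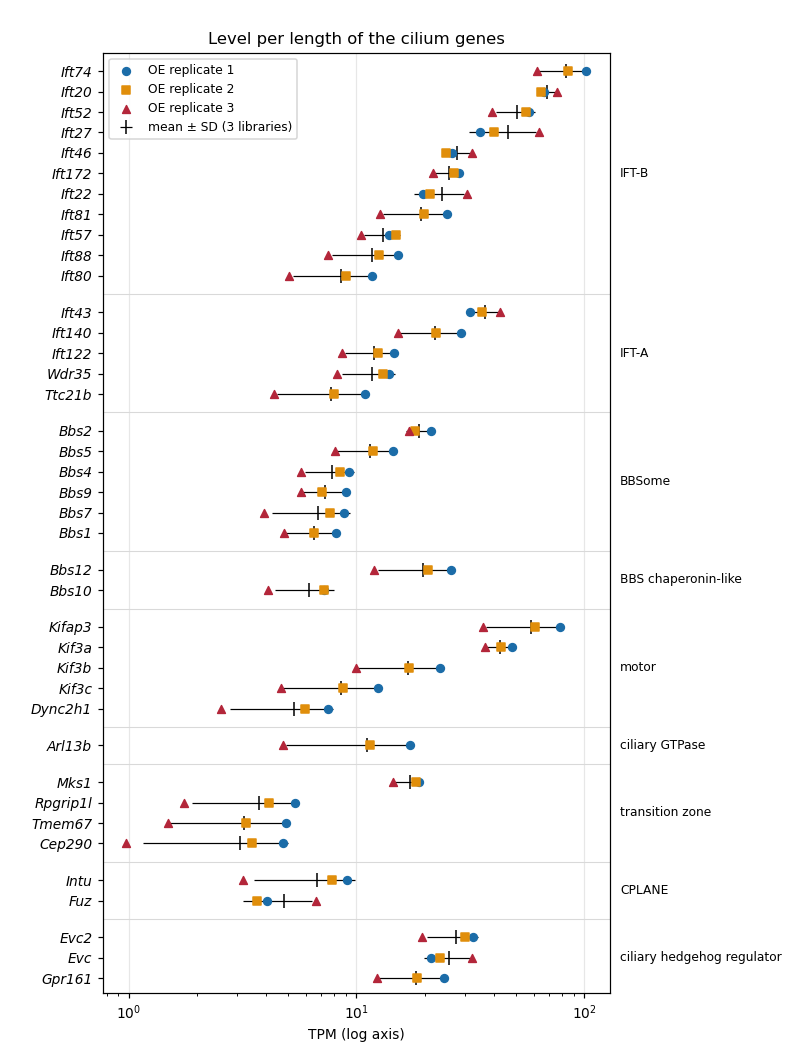
Level per length (TPM, log axis) of each of the 39 genes in OE replicates 1, 2 and 3, grouped by role, with a vertical tick for the mean and a horizontal bar for ± SD over the 3 libraries. *Ift74*, *Ift20*, *Kifap3* and *Ift52* have the highest means, from 82.8 to 50.8 TPM, and *Cep290*, *Tmem67* and *Rpgrip1l* the lowest, from 3.07 to 3.75 TPM.

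The 11 IFT-B genes among the 39 spanned 9.65-fold in TPM. *Ift74*, which binds tubulin together with *Ift81*, had the highest mean of the 39 at 82.8 ± 19.7 TPM (SD, n = 3 here and below), although *Ift20* and *Ift27* were above it in replicate 3. *Ift20*, which also works at the Golgi in sorting cargo to the cilium, was at 68.8 ± 6.17. Their intervals of 1 SD overlapped. *Ift52* followed with 50.8 ± 9.85, *Ift27*, a GTPase needed for BBSome exit, with 46.1 ± 15.0, *Ift46* with 27.7 ± 3.81 and *Ift172*, a peripheral subunit, with 25.6 ± 3.39. *Ift22* was at 23.7 ± 5.86 TPM, *Ift81* at 19.2 ± 6.17, *Ift57* at 13.1 ± 2.34 and *Ift88*, a core subunit, at 11.8 ± 3.94. *Ift80*, in which mutations cause a skeletal ciliopathy, was the lowest of the 11 IFT-B genes among the 39 at 8.58 ± 3.34 TPM. The order depends on the length used. With the longest coding transcript in place of all exons, *Ift27* came to 90.6 TPM, above *Ift74* at 71.5, and *Ift80* to 18.3 TPM, above *Ift57* at 10.1 and *Ift88* at 12.3. Spearman's rho between the 2 sets of TPM was 0.94 over the 39 genes.

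By library, *Ift74* had 71.9, 69.8 and 66.6 CPM in replicates 1, 2 and 3, the smallest coefficient of variation (CV, SD over mean) of the 39 genes at 3.85%. *Ift20* had 27.0, 30.4 and 46.6 CPM and *Ift80* had 38.8, 34.6 and 25.4 CPM. Replicate 3 was thus the highest library for *Ift20* and the lowest for *Ift80*. *Ift22* had 18.8, 23.7 and 44.2 CPM. *Ift27* had 26.6, 35.9 and 72.8 CPM, a CV of 54.2%. Replicate 3 was the highest for both GTPases. As a result, the ratio of *Ift27* to *Ift74* in TPM, both subunits of IFT-B, was 0.343, 0.476 and 1.01 in replicates 1, 2 and 3. The summed level of the 11 IFT-B genes was 389, 415 and 497 CPM.

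Among 5 genes of IFT-A, *Ift43* had the highest level at 36.6 ± 5.66 TPM and *Ttc21b*, which encodes IFT139 and restrains Hedgehog signalling, the lowest at 7.73 ± 3.26. *Ift140* was at 22.1 ± 6.78 TPM, *Ift122* at 11.9 ± 3.01 and *Wdr35*, which encodes IFT121, at 11.7 ± 3.05. The peripheral subunit *Ift43* had 13.8, 18.3 and 28.4 CPM, highest in replicate 3. *Ttc21b* had 26.9, 23.1 and 16.2 CPM and *Ift140* had 64.0, 57.8 and 51.1 CPM, both lowest there. *Ift122*, a core subunit, was nearly level at 40.2, 39.7 and 36.0 CPM with a CV of 6.01%. The sum of the 5 genes was 172, 168 and 156 CPM.

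Of the 6 BBSome subunits, 4 lay below the median level of all genes tested, and *Bbs2* and *Bbs5* above it. *Bbs2* was highest at 18.8 ± 2.25 TPM, followed by *Bbs5* at 11.4 ± 3.20, *Bbs4* at 7.83 ± 1.87, *Bbs9* at 7.24 ± 1.62, *Bbs7* at 6.80 ± 2.56 and *Bbs1* at 6.49 ± 1.68. Their median CV was 7.70%, against 17.9% over all 39 genes. *Bbs7*, with values given after they were seen, was the least even with 12.7, 12.8 and 8.53 CPM and a CV of 21.5%. *Bbs9* had 14.9, 13.7 and 14.4 CPM, a CV of 4.21%. *Bbs1* had 16.7, 15.5 and 14.9 CPM. *Bbs2* had 18.8, 18.6 and 22.6 CPM and *Bbs5* had 9.40, 9.01 and 7.94 CPM. No library was apart from the others in *Bbs9*, whose lowest value was in replicate 2. Summed over these 6 genes, the libraries held 87.5, 85.5 and 82.2 CPM. The chaperonin-like proteins that help assemble the BBSome stood at 19.5 ± 7.04 TPM for *Bbs12* and 6.17 ± 1.79 for *Bbs10*. *Bbs12* had 16.9, 15.5 and 11.8 CPM. *Bbs10* had 5.84, 6.84 and 5.04 CPM, so both were lowest in replicate 3.

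Of the motor genes, *Kifap3*, the cargo adaptor of kinesin-2, had the highest mean at 58.3 ± 21.3 TPM. In replicate 3 *Kif3a* was above it, at 36.5 against 35.9 TPM. *Kif3a*, the motor subunit shared by the kinesin-2 forms, was at 42.5 ± 5.77, above its alternative partners *Kif3b* at 16.7 ± 6.65 and *Kif3c* at 8.59 ± 3.86. *Dync2h1*, the heavy chain of dynein-2, was at 5.33 ± 2.54. The order *Kif3a*, *Kif3b*, *Kif3c* held in each library. The TPM ratio of *Kif3a* to *Kif3b* was 2.06, 2.54 and 3.66 in replicates 1, 2 and 3, and that of *Kif3b* to *Kif3c* was 1.88, 1.95 and 2.13. By library, *Kifap3* had 83.7, 75.5 and 58.1 CPM and *Kif3a* had 45.9, 48.1 and 52.7 CPM. *Dync2h1* had 32.8, 30.2 and 16.7 CPM. Replicate 3 was lowest for the adaptor and the dynein and highest for *Kif3a*. *Kif3c* had 24.5, 20.1 and 13.9 CPM, lowest in replicate 3, and 40.7% of its exonic bases are shared with *1110002L01Rik* and *Gm48512* on the opposite strand. The library kit does not mark strand, so reads there cannot be assigned to one gene or the other.

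*Arl13b*, a GTPase of the ciliary membrane needed for Hedgehog signalling, was at 11.1 ± 6.20 TPM, with 23.2, 18.2 and 9.71 CPM in replicates 1, 2 and 3. By mean TPM over the union of exons, transition zone genes held the 3 lowest levels of the 39. The order depends on library and length, since *Fuz* was the lowest gene in replicate 1 at 4.06 TPM, and with coding transcript length *Dync2h1*, *Bbs10* and *Intu* lay below *Rpgrip1l*. *Cep290*, which links the zone's microtubules to the membrane, was at 3.07 ± 1.92 TPM, *Tmem67*, a membrane protein, at 3.22 ± 1.72 and *Rpgrip1l*, a scaffold, at 3.75 ± 1.85. *Mks1*, a soluble subunit of the same gate, was higher at 17.2 ± 2.36 TPM. *Cep290* had 14.7, 12.6 and 4.56 CPM with a CV of 50.4%, and *Rpgrip1l* had 21.1, 18.8 and 10.3 CPM. *Mks1* had 20.3, 22.9 and 23.5 CPM. *Cep290* and *Rpgrip1l* were thus lowest in replicate 3 and *Mks1* was not, and the TPM ratio of *Mks1* to *Cep290* was 3.96, 5.22 and 14.8.

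*Intu* and *Fuz*, planar polarity effectors (CPLANE) that recruit IFT-A to the cilium base, had mean levels of 6.68 ± 3.12 and 4.78 ± 1.61 TPM. With coding transcript length the order turned, at 5.41 TPM for *Intu* and 9.80 TPM for *Fuz*. They differed in opposite directions between libraries. *Intu* had 18.1, 17.9 and 9.46 CPM. *Fuz* had 5.42, 5.69 and 13.4 CPM and the largest CV of the 39 genes, 55.2%. In TPM, *Fuz* over *Intu* was 0.446 and 0.471 in replicates 1 and 2 and 2.09 in replicate 3. Of the exonic bases of *Fuz*, 38.5% are shared with *D7Bwg0826e* and *Ap2a1* on the opposite strand, with the same limit as for *Kif3c*. In all, 31 of the 39 genes share no exonic base with another gene in GENCODE M21 (GRCm38), and *Bbs12* alone shares any (1.31%) on its own strand.

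Of the Hedgehog regulators of the cilium, *Evc2* was at 27.3 ± 6.88 TPM, *Evc* at 25.6 ± 5.85 and *Gpr161*, a receptor that represses the pathway, at 18.3 ± 5.99. With coding transcript length they were at 27.1, 31.7 and 12.9 TPM, so *Evc* was then the highest. *Evc* and *Evc2* encode partner proteins at the cilium base and are mutated in Ellis-van Creveld syndrome. They lie head to head on chromosome 5, *Evc* at 37289098 to 37336894 on the minus strand and *Evc2* at 37338499 to 37425055 on the plus strand (GRCm38), with starts 1605 bases apart. *Evc* had 43.4, 55.8 and 99.9 CPM, a CV of 44.7%. *Evc2* had 50.5, 54.2 and 45.7 CPM, a CV of 8.47%. Replicate 3 was thus the highest library for *Evc* and the lowest for *Evc2*, and their TPM ratio was 0.652, 0.780 and 1.66 in replicates 1, 2 and 3. The transcripts have nearly the same GC content, 56.9% for *Evc* and 56.8% for *Evc2*, and exonic lengths of 7701 and 5837 bp. *Gpr161* had 45.0, 39.7 and 34.3 CPM, lowest in replicate 3.

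**Figure D2:**
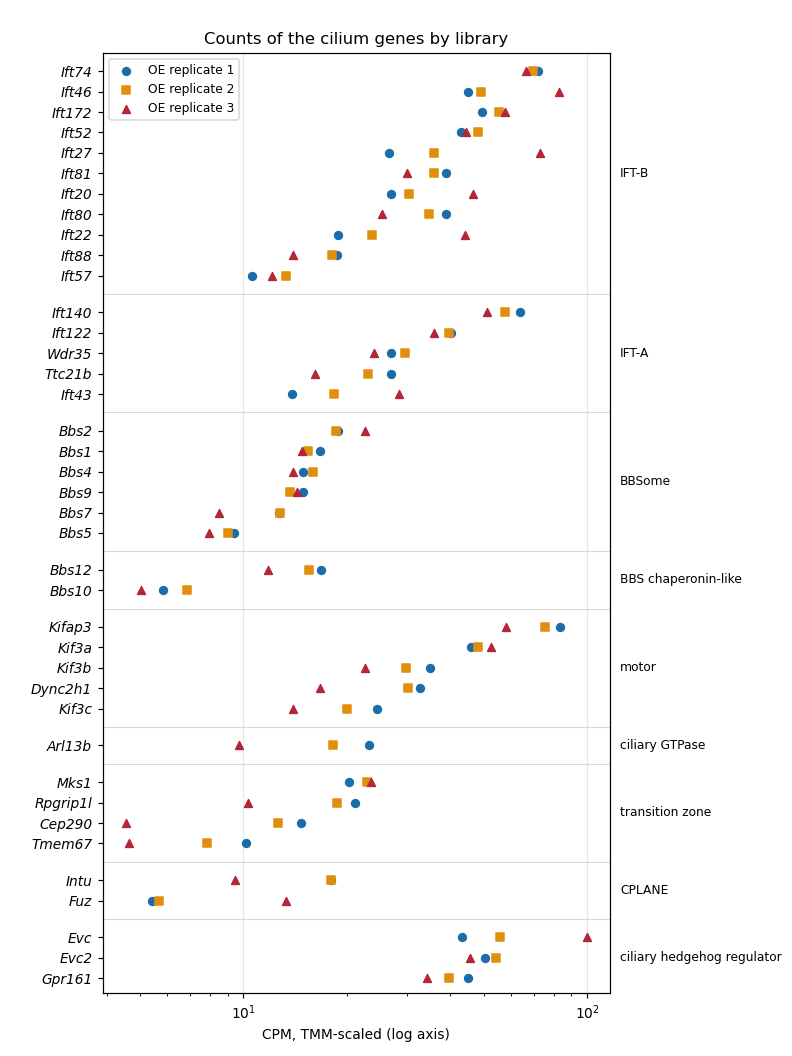
Counts per 1000000 with TMM scaling (CPM, log axis) of each of the 39 genes in OE replicates 1, 2 and 3, grouped by role. Replicate 3 lies to the right for *Ift22*, *Ift27*, *Fuz* and *Evc* and to the left for *Arl13b* and *Cep290*, while the libraries lie close together for *Bbs1*, *Bbs4* and *Bbs9*.

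The spread between libraries was then set against counting noise, to ask which genes differ by more than the sampling of reads gives. A chi-square test of the 3 counts per gene, with Benjamini-Hochberg adjustment over the 17115 genes at 0.05, called 35 of 39 genes, where the share over all genes tested was 81.5%. It compares libraries of 1 group with each other, not conditions. The 4 genes not called were *Bbs1*, *Bbs4*, *Bbs5* and *Bbs9*, with counts of 296 to 647 in a range of 170 to 3725 over the 39 genes, so 2 of the 6 BBSome genes (*Bbs2* and *Bbs7*) were called. Other subunits of the BBSome were less even, since *Ttc8* and *Bbip1*, which are outside the 39 and were named after their values were seen, had CVs of 23.1% and 12.0% and were both called. Without replicate 3, 21 of 39 genes were called, against 48.9% of 16890 genes tested in that setting. The median CV of the 39 genes was 17.9%, against 27.0% over all genes tested, and 25 of 39 lay below that. The median over all genes depends on the filter and was 42.8% over genes with at least 1 count. Against the 7195 genes with a mean count in the same range, 220 to 2705, the median was 22.9% and 24 of 39 lay below it. Without replicate 3 the median CV was 7.09% for the 39 genes and 10.9% for all genes tested.

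**Figure D3:**
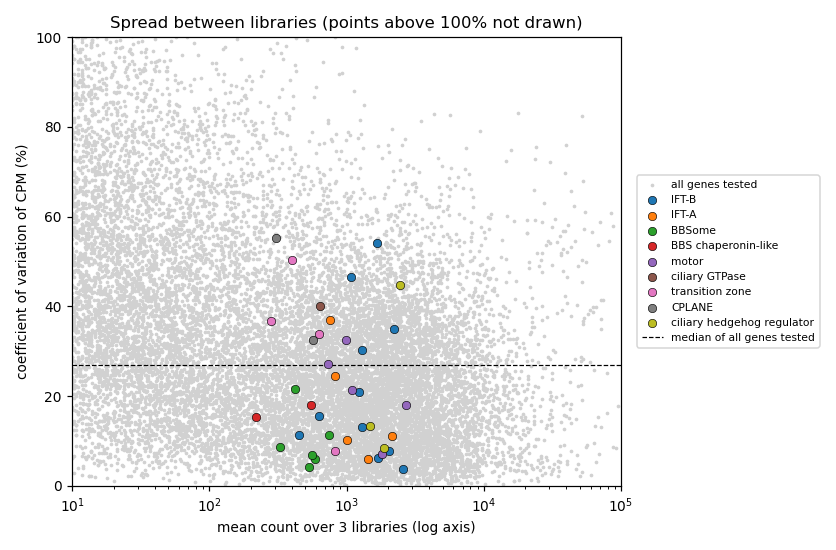
Coefficient of variation of CPM over the 3 libraries (%) against mean count (log axis), with all genes tested in grey and the 39 genes coloured by role. The dashed line marks the median of all genes tested, 27.0%, and all 6 BBSome genes lie below it.

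Each library was next compared with the mean of the other 2 as a difference in log2(CPM + 1), called past 2-fold at 1 on that scale. Since 1 library stands against 2, these differences have no replicate check. In replicate 1, 0 of 39 genes were past 2-fold higher and 0 lower, with 2.04% and 1.92% of all genes tested. In replicate 2 there were again 0 and 0, with 0.292% and 0.473% of all genes. In replicate 3, 4 genes were past 2-fold higher, where 6.34% of all genes were, and 2 were past 2-fold lower, where 4.87% were. The 4 higher genes were *Ift27* at 1.21, *Fuz* at 1.13, *Ift22* at 1.03 and *Evc* at 1.01, and the lower ones were *Cep290* at -1.40 and *Arl13b* at -1.01. Set against replicate 2 alone, without replicate 1, *Cep290* (-1.30) and *Fuz* (1.09) stayed past 2-fold, and *Ift27* (0.99), *Ift22* (0.86), *Arl13b* (-0.85) and *Evc* (0.82) did not, where 3.7% of all genes were higher and 2.76% lower. Set against replicate 1 alone, without replicate 2, all 6 stayed past 2-fold, from 1.16 for *Fuz* to 1.42 for *Ift27* and at -1.18 for *Arl13b* and -1.50 for *Cep290*, where 8.9% of all genes were higher and 8.19% lower.

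Replicate 3 was the lowest library for 25 of 39 genes (64.1%), against 44.6% of all genes tested. It was the highest for 11 (28.2%), against 44.2%. The 39 genes are longer than those they are set against, with a median exonic length of 5837 bp against 3871 bp. Their median GC content was 47.9%, against 49.8% over all genes tested. The median difference over the 39 genes was -0.19 in replicate 3, 0.09 in replicate 1 and 0.08 in replicate 2, with medians over all genes tested between -0.01 and 0.00. By direction, 13 genes were higher and 26 lower in replicate 3. With library totals in place of TMM scaling the split was 9 and 30, and the median of all genes was then itself -0.12. By role, the median in replicate 3 was 0.02 for IFT-B, -0.22 for IFT-A, -0.12 for the BBSome, -0.50 for motors and -0.85 for the transition zone. With the trend on length and GC content described below removed, these medians were 0.15, 0.05, 0.14, -0.23 and -0.34, so the sign turned for IFT-A and the BBSome. These medians hold for the listed genes and not for the roles, since the 19 other transition zone genes described below had a median of 0.16 as scaled, with 10 higher and 9 lower, and the 6 other motor genes had 0.28, with 6 of 6 higher. For 30 of 39 genes replicate 2 lay between the other libraries, as it did for 68% of all genes tested.

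These differences went with the length and base composition of the transcripts, over all genes and over the 39. Across the 39 genes, Spearman's rho of the difference in replicate 3 was -0.50 with exonic length and 0.64 with GC content. Across the 17101 genes tested that had a length, it was -0.46 and 0.44. Genes are not independent replicates, and all points share the same 3 libraries. Of 18 genes longer than 6000 bp, 4 were higher and 14 lower in replicate 3, where 1093 of all genes in that class were higher and 3543 lower. Among 13 genes of over 3000 and up to 6000 bp, 5 were higher and 8 lower, where 2804 of all genes in that class were higher and 3182 lower. Of 8 genes of up to 3000 bp, 4 were higher and 4 lower, where 4549 of all genes in that class were higher and 1930 lower. *Cep290* has 11617 exonic bp and 38.7% GC, and *Ift27* has 2864 exonic bp and 55.8% GC. Length and GC content were themselves nearly unrelated over the 39 genes, with a rho of -0.07.

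**Figure D4:**
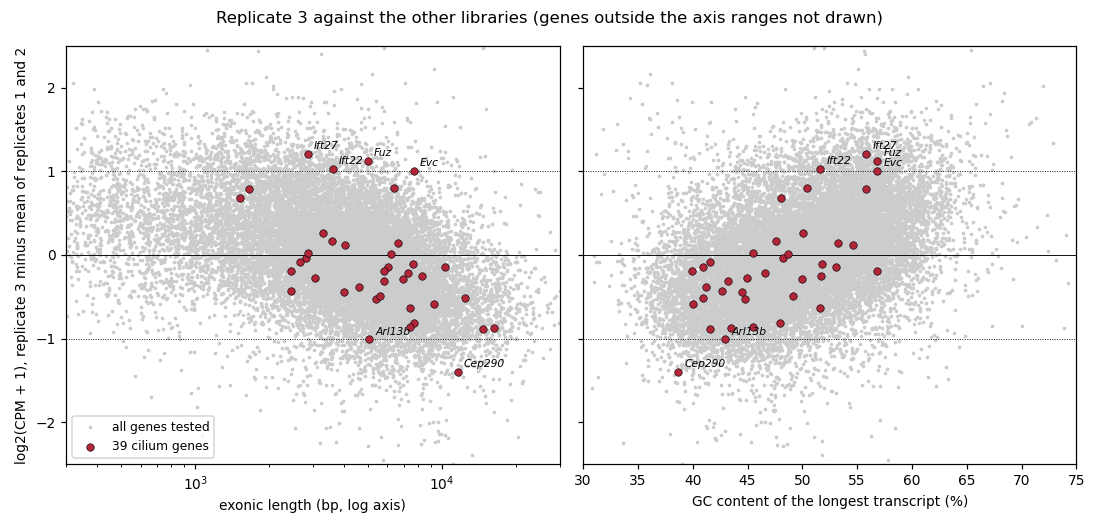
Difference in log2(CPM + 1) of OE replicate 3 from the mean of replicates 1 and 2, against exonic length (bp, log axis) and GC content of the longest transcript (%), with all genes tested in grey and the 39 genes in red. Dotted lines mark 2-fold, long genes lie lower (rho -0.50 over the 39) and genes of high GC content lie higher (rho 0.64).

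A smooth trend on length and GC content, fitted over all genes tested, was then removed from each difference. The median over the 39 genes in replicate 3 became 0.02, and 20 genes were higher and 19 lower. After removal 0 of 39 genes were past 2-fold in either direction, where 2.89% of all genes were higher and 2.8% lower. The relation was reduced but not gone over the 39 genes, with a rho of 0.38 with GC content and -0.22 with exonic length left in replicate 3. Over all genes these were 0.02 and -0.01, which are small by construction because the trend was fitted on the same 2 properties. With the length of the longest coding transcript, rho went from -0.55 to -0.23 over 14116 genes. Over the 39 genes it went from -0.55 to -0.39. The differences left after removal were uneven. *Evc* stayed at 0.97, *Fuz* at 0.94, *Ift22* at 0.93 and *Ift27* at 0.85, and *Ift46*, named after its values were seen, was at 0.97. *Cep290* came to -0.72 and *Arl13b* to -0.66. *Dync2h1* and *Rpgrip1l*, which are the longest of the 39, went from -0.87 to -0.22 and from -0.88 to -0.20. Marker lists differed in the same library as scaled. In replicate 3, 5 of 5 pigment markers tested, 3 of 7 eye and forebrain, 1 of 6 erythroid, 1 of 6 macrophage and 1 of 9 facial mesenchyme markers were past 2-fold higher. Past 2-fold lower were 4 of 9 neuron, 3 of 7 epithelial and 1 of 6 endothelial markers. Their part in these differences was not tested.

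**Figure D5:**
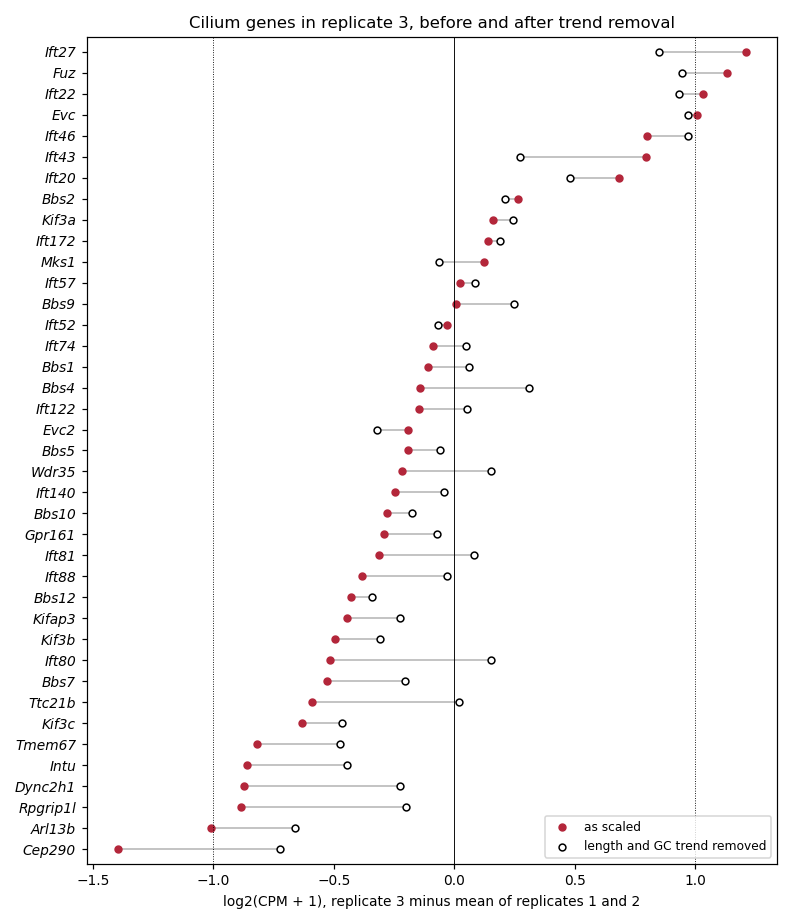
Difference in log2(CPM + 1) of OE replicate 3 from the mean of replicates 1 and 2 for each of the 39 genes, as scaled (red) and with the trend on length and GC content removed (open), with dotted lines at 2-fold. The 6 genes past 2-fold as scaled all lie inside it after removal, and *Ift46*, *Evc*, *Fuz* and *Ift22* are then the highest at 0.93 to 0.97.

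A further 67 cilium genes outside the 39 (other IFT, BBS, motor, ciliary GTPase, transition zone, basal body, CPLANE and Hedgehog genes) were described for context. All 67 passed the filter, with a median of 14.2 TPM (0.184 to 190) and summed levels of 2391, 2411 and 2387 CPM in replicates 1, 2 and 3. Of these, 60 (89.6%) were beyond counting noise, where 81.5% of all genes tested were. In replicate 3, 5 (7.46%) were past 2-fold higher, against 6.34% of all genes, and 1 (1.49%) was past 2-fold lower, against 4.87%. In replicate 1 there were 0 and 1. The 5 were *Cluap1* (an IFT-B subunit), *B9d1* and *B9d2* (partners of *Mks1* in the transition zone), *Cep131* and *Ccdc28b*, and the lower one was *Pcm1*, the scaffold of centriolar satellites. These names were chosen after their values were seen. With the length and GC trend removed, all 6 lay inside 2-fold, from -0.53 for *Pcm1* to 0.94 for *Ccdc28b*, *Rsg1* (-0.82 as scaled) lay past it at -1.04, and the median over the 67 genes went from -0.14 to 0.07. *B9d1* had 14.2, 17.6 and 35.3 CPM, *B9d2* had 10.4, 13.3 and 25.9 CPM and *Pcm1* had 138, 109 and 58.9 CPM. Replicate 3 was the lowest library for 38 of 67 genes and the highest for 27. Over these genes, rho of the difference in replicate 3 was -0.41 with exonic length and 0.49 with GC content.

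Genes of motile cilia, which beat and are found on multiciliated cells among others, were mostly low. The 16 markers had a median of 0.271 TPM and 10 of them passed the filter, with sums of 49.2, 48.8 and 59.1 CPM. By mean, *Tekt1* was the highest at 14.0 ± 5.45 TPM and *Ccdc40* came next at 13.8 ± 1.28 TPM, both above the 10.9 TPM median of all genes tested. The order depends on library and length. *Ccdc40* was above *Tekt1* in replicates 1 and 2 and, with coding transcript length, at 11.6 against 10.9 TPM. *Tekt1* had 4.55, 5.64 and 13.2 CPM in replicates 1, 2 and 3. *Ccdc40* had 23.3, 27.1 and 29.8 CPM, and *Mcidas*, a master regulator of multiciliated cells, had at most 3 counts in any library. *Foxj1*, the regulator of motile cilia, was at 6.88 ± 5.93 TPM, with 9.58, 3.32 and 3.03 CPM. The values of *Ccdc40* and *Foxj1* and the library values of *Tekt1* were added after they were seen. Of the 7 RFX factors, 6 passed the filter, and *Rfx1* at 26.9 ± 1.02 TPM and *Rfx7* at 14.2 ± 7.31 TPM were the highest. *Rfx1* had 46.9, 51.5 and 71.8 CPM and *Rfx7* had 88.8, 65.5 and 44.1 CPM, so replicate 3 was the highest library for the first and the lowest for the other. Summed over the 7 factors, the level was 184, 155 and 142 CPM.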

How the data were processed

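Raw counts per gene were analysed for 3 bulk RNA-Seq libraries of E10.5 maxillary processes. Poly-A RNA was used with a kit that does not mark strand. Per the submitters' processing notes, the authors used FastQC, STAR 2.7.3a and HTSeq 0.12.4 with mm10, and deposited whole-number counts without normalization. The annotation release and strand setting are not given in the sources used here. Entries that name no gene (14.2%, 15.7% and 16.4% of counted reads in replicates 1, 2 and 3, with 6.11%, 6.10% and 6.96% of counted reads being ambiguous) were left out.

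Of 55401 identifiers, 55141 matched GENCODE M21 (GRCm38). CPM used TMM scaling (edgeR 4.0.16, R 4.3.3), and TPM used the union of exons of each gene. A value of 1 was added before log2. A gene was tested where its counts averaged 10 or more. The length and GC trend was fitted with mgcv 1.9.3, and DESeq2 1.42.0 gave other size factors. Other steps ran in Python 3.11.15 with pandas 2.3.3, scipy 1.17.1 and numpy 2.4.6. The steps were checked on simulated data. With 1 group, no test between groups was possible, and tests measure only the spread between these samples, which may be technical. Counting noise covers the sampling of reads only.

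The members and lists were chosen with earlier results of these data known. All 39 genes are given by level. Values in every library are given for the 2 highest and the lowest gene by TPM of each role, genes past 2-fold in any library, the 3 largest and 3 smallest coefficients of variation, and genes that share at least 10% of exonic bases, while of other lists the 2 highest RFX factors and the highest motile cilia marker are named. Alternatives were other scalings, filters, added values and lengths, removal of the trend, and leaving out each library. The comparison with genes in the same range of counts, and the coding transcript length in the relation of length to the log2 ratio, were chosen after seeing the data.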

Additional observations from a re-analysis of the deposited data

How the results depend on the processing

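Of 94 alternatives over 15 results, 24 moved the value past a set limit. In 4 alternatives the sign turned, each of them a median or rho given without a test. The limit was 1.5 times for a count. For median log2 ratios it was the spread of the median level of the 39 genes between libraries. For the CV and rho it was the spread of the values with a library left out. Those left-out values were thus judged by their own spread, and the number of moves depends on these limits. The number of genes beyond counting noise was 21 to 34 of the 39 when a library was left out. The lowest number was without replicate 3, where 48.9% of all genes tested were called. No share over all genes is given for the other settings, so their numbers cannot be read against it. The number past 2-fold was 0 to 6 in replicate 1, 0 to 2 in replicate 2 and 2 to 6 in replicate 3 when a library was left out, and 0 in replicate 3 with the length and GC trend removed. The median log2 ratio of the 39 genes in replicate 1 (0.09) was 0.21 with library totals, -0.048 with the trend removed and 0.015 to 0.16 with a library left out. In replicate 2 (0.08) it was 0.028 with the trend removed and -0.015 to 0.19 with a library left out. In replicate 3 (-0.19) it was -0.34 with totals, 0.018 with the trend removed and -0.19 to -0.16 with a library left out. The median CV was 7.09% to 25.3% with a library left out. Spearman's rho of length with the log2 ratio (0.53, 0.33 and -0.50 in replicates 1, 2 and 3) was 0.27, 0.082 and -0.22 with the trend removed. In replicates 1 and 3 it was 0.57 and -0.55 with the longest coding transcript. With a library left out it was 0.50 to 0.51 in replicate 1, -0.50 to 0.47 in replicate 2 and -0.51 to -0.47 in replicate 3. Leaving out a library sets 1 library against 1. Removing the trend changes the ratios by construction, and the cause of the other moves was not tested. No paired analysis was possible because there is 1 group. Depth did not limit the levels of the 39 genes, whose lowest count was 170.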
